A study of Mus musculus with 6 samples.

Results

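The genes described here are the ligand Nodal, its secreted inhibitors Lefty1 and Lefty2, and the genes that make, bind or relay the Nodal signal, measured in pools of mouse blastocysts. The members were chosen by gene symbol. Earlier results of these data were known when the members and the later gene lists were chosen. They were 10 genes of the 19057 named on the array, read by 16 of its 45281 probes, and each probe was kept apart. Members with 1 probe numbered 6 (Lefty1, Lefty2, Gdf3, Tdgf1, Acvr2b and Smad2), Nodal and Foxh1 had 2 probes each, and Furin and Acvr1b had 3 each.

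The study asked which genes of the pre-implantation embryo depend on estrogen. All embryos were blastocysts of CD-1 mice at day 3.5 whose mothers had received 5 IU of PMSG and, 44 h later, 5 IU of hCG, gonadotropins that induce ovulation. The first group was flushed from the uterus of mice given ICI at 0.5 µg per mouse, a compound that the labels name no further. The second was collected from oviducts that had been ligated, per the labels, at dpc 4 with the plug counted as dpc 1. The third came from the uterus of normal pregnancies. For the uterine groups the labels give a time of 70 h after hCG, and they name no vehicle for the normal mice. Each group had 2 arrays, each hybridised with RNA from a pool of 100 to 120 embryos. The labels do not say whether the replicate pools came from separate sets of mice, so each p-value reflects pool-to-pool spread alone, some or all of which may be technical.

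Nodal is a ligand of the TGF-beta family. It is made as a precursor that convertases such as Furin cut, and it signals through the type II receptor Acvr2b and the type I receptor Acvr1b with Tdgf1 (Cripto) as co-receptor. The receptors phosphorylate Smad2, which enters the nucleus and, with partners such as the forkhead protein Foxh1, switches on target genes that include Nodal itself, Lefty1 and Lefty2. The Lefty proteins block Nodal outside the cell and so form a feedback loop. In the mouse blastocyst the pathway is known from the inner cell mass, and after implantation it patterns the epiblast.

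The mean probe signal before normalization was 344 to 372 in the ICI group, 381 to 488 in the oviduct group and 356 to 375 in the uterus group. It was highest on oviduct replicate 1, at 488. The number of probes above background (detection p under 0.05) lay between 16525 and 18182 per array. The 2 oviduct arrays were the least alike of any replicate pair. Over the 17677 probes kept for testing they correlated at r = 0.960, against 0.991 for the ICI pair and 0.988 for the uterus pair. Oviduct replicate 1 correlated more closely with the uterus arrays (0.967 and 0.968) than with oviduct replicate 2. Differences that rest on the oviduct arrays are therefore also given without each of them for several members. With 1 array left in a group its spread is not measured, so passing in such a fit is no support. All levels below are log2 signals after background correction and quantile normalization, so a difference of 1 is a 2-fold difference and levels of different probes cannot be compared.

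Of the 16 member probes, 13 were above background on both arrays of at least 1 group and were tested, and every member gene kept at least 1 probe. Each of the 3 left out was a further probe of a gene that was tested through another. No member probe passed limma's test at an adjusted p under 0.05 in any comparison. Over all 17677 probes that test called 0% between ICI and uterus, 0.0509% between oviduct and uterus and 0.339% between ICI and oviduct. The member nearest to the threshold was Lefty2, with a limma adjusted p of 0.0506 between ICI and oviduct and 0.0735 between oviduct and uterus.

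**Figure D1:**
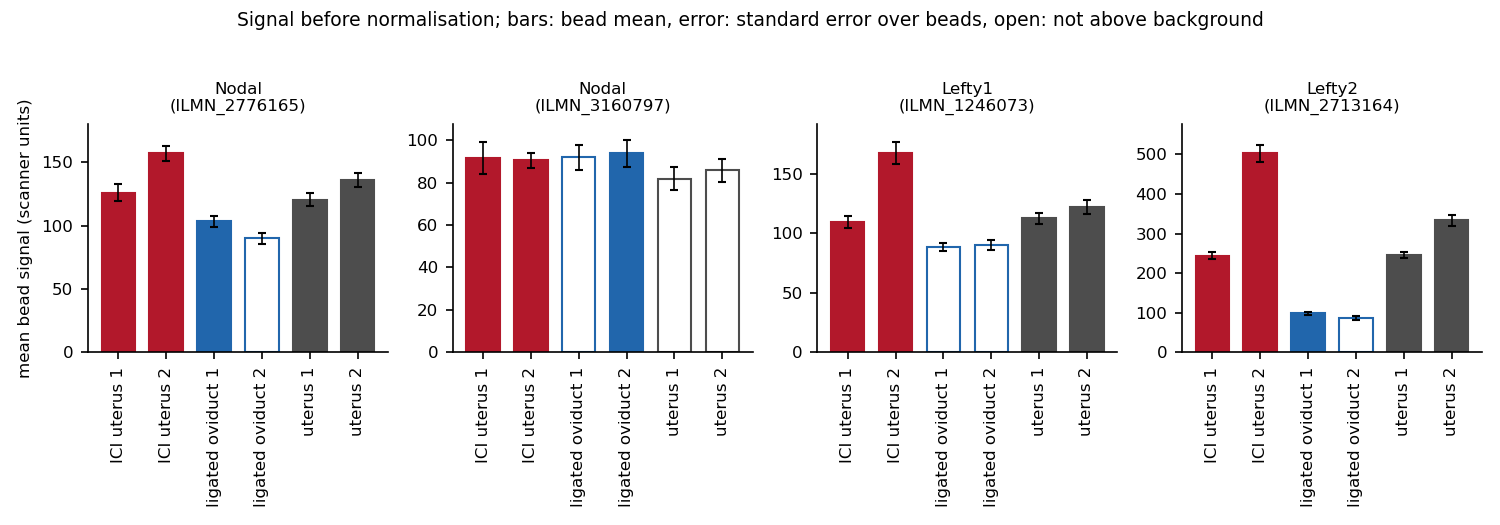
Deposited signals (scanner units) of the Nodal, Lefty1 and Lefty2 probes on each of the 6 arrays, before background correction, with error bars of 1 standard error over that probe's beads and open bars where not above background. Lefty2 stood at 244 and 502 on the ICI arrays, 98.6 and 87.3 on the oviduct arrays and 247 and 333 on the uterus arrays, so for Lefty2 the gap between replicate arrays was wider than the bead error.

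Lefty2, a secreted inhibitor of Nodal, differed most between groups among the members. Its level was 7.59 and 9.06 on the ICI arrays, 5.03 and 4.79 on the oviduct arrays, and 7.69 and 8.25 on the uterus arrays. Both oviduct values lay below all 4 uterine values, and only 1 of the oviduct arrays was above background. The ICI and uterus arrays overlapped, because the ICI replicates lay on either side of the uterus replicates.

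In oviduct embryos Lefty2 averaged 4.91 ± 0.17, against 7.97 ± 0.40 in uterus embryos (SD, n = 2 each), a log2 difference of -3.06 (SE 0.46, 95% interval -4.17 to -1.96). This is an 8.35-fold lower signal as measured, whose size is not exact because the oviduct mean lay at the edge of background. The difference did not pass the adjusted threshold (limma unadjusted p = 0.000354, adjusted p = 0.0735). The difference was -3.18 without oviduct replicate 1 and -2.94 without oviduct replicate 2. With each array scaled to its median in place of quantile normalization it passed, at a limma adjusted p of 0.0460. It passed under no other setting that kept both arrays of each group, with a limma adjusted p of up to 0.201 (array weights). Without background correction the log2 difference was -1.65. Embryos were pooled whole, so fewer cells that make a transcript and less of it per cell cannot be told apart.

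Set against the same oviduct arrays, ICI embryos averaged 8.32 ± 1.04 for Lefty2, a log2 difference of 3.41 (SE 0.46, 95% interval 2.31 to 4.52) or 10.7-fold as measured, with the same limit on its size. It was 2.68 without ICI replicate 2, 4.15 without ICI replicate 1, and 1.95 without background correction. The limma adjusted p was 0.0506. The log2 difference was 3.53 without oviduct replicate 1 and 3.30 without oviduct replicate 2. It passed with median scaling (limma adjusted p = 0.0244) and with detection p under 0.01 (limma adjusted p = 0.0474). It passed under no other setting that kept both arrays of each group. Between ICI and uterus the difference was 0.35 (SE 0.46, 95% interval -0.75 to 1.46, limma adjusted p = 0.825). Its sign rested on ICI replicate 2, without which it was -0.385. The comparisons of ICI and of uterus with oviduct share the oviduct arrays and are not independent.

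Lefty1, the paralog of Lefty2, had the same order of groups. It stood at 5.71 and 6.99 on the ICI arrays, 4.72 and 4.87 on the oviduct arrays, and 5.94 and 6.15 on the uterus arrays. Neither oviduct array was above background, while all 4 uterine arrays were. The log2 difference between oviduct and uterus embryos was -1.25 (SE 0.39, 95% interval -2.18 to -0.31, limma adjusted p = 0.176). It was -0.49 without background correction. With the oviduct level raised to the lowest signal that counts as above background, the means still differed 2.14-fold. Such a bound allows for background but not for spread between pools. Between ICI and oviduct embryos the log2 difference was 1.55 (SE 0.39, 95% interval 0.62 to 2.48, limma adjusted p = 0.116). With the oviduct level raised likewise, the means differed 2.64-fold, a bound that rests on ICI replicate 2. Without that replicate the measured log2 difference was 0.91, and without ICI replicate 1 it was 2.19. The measured means were 6.35 ± 0.90, 4.80 ± 0.11 and 6.05 ± 0.16 in ICI, oviduct and uterus embryos (SD, n = 2 each). Between ICI and uterus the log2 difference was 0.30 (SE 0.39, 95% interval -0.63 to 1.23, limma adjusted p = 0.821), and -0.33 without ICI replicate 2. The paralogs are close in sequence and no probe sequences were used here, so how far each probe reads the other gene is uncertain.

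Nodal itself was read by 2 probes that disagreed. The brighter probe (ILMN_2776165) had 6.11 and 6.83 on the ICI arrays, 5.17 and 4.87 on the oviduct arrays, and 6.13 and 6.44 on the uterus arrays. The oviduct values again lay below all uterine values, with 1 of the 2 oviduct arrays above background. Oviduct embryos averaged 5.02 ± 0.22, against 6.28 ± 0.22 in uterus embryos (SD, n = 2 each). The log2 difference was -1.26 (SE 0.28, 95% interval -1.93 to -0.59), or 2.40-fold lower, and did not pass (limma adjusted p = 0.113).

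ICI embryos averaged 6.47 ± 0.51 for this Nodal probe, 1.45 above the oviduct mean (SE 0.28, 95% interval 0.78 to 2.12, limma adjusted p = 0.0786). That difference was 1.61 without oviduct replicate 1 and 1.30 without oviduct replicate 2. It passed under no setting that kept both arrays of each group. From uterus embryos ICI embryos differed by 0.19 (SE 0.28, 95% interval -0.48 to 0.86, limma adjusted p = 0.848), and by -0.17 without ICI replicate 2. For Nodal, Lefty1 and Lefty2 alike, ICI replicate 2 was the highest array of all.

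The dimmer Nodal probe (ILMN_3160797) lay at the edge of detection, at 5.09 and 5.16 on the ICI arrays, 4.82 and 4.99 on the oviduct arrays, and 4.73 and 4.96 on the uterus arrays. It was above background on both ICI arrays, 1 oviduct array and no uterus array. Its oviduct and uterus arrays overlapped, with a log2 difference of 0.06 (SE 0.18, 95% interval -0.38 to 0.50, limma adjusted p = 0.890). The ICI mean lay 0.28 above the uterus mean (SE 0.18, 95% interval -0.15 to 0.72, limma adjusted p = 0.647). The probe was tested only because both ICI arrays were above background. The lower Nodal signal in oviduct embryos therefore rests on 1 probe.

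**Figure D2:**
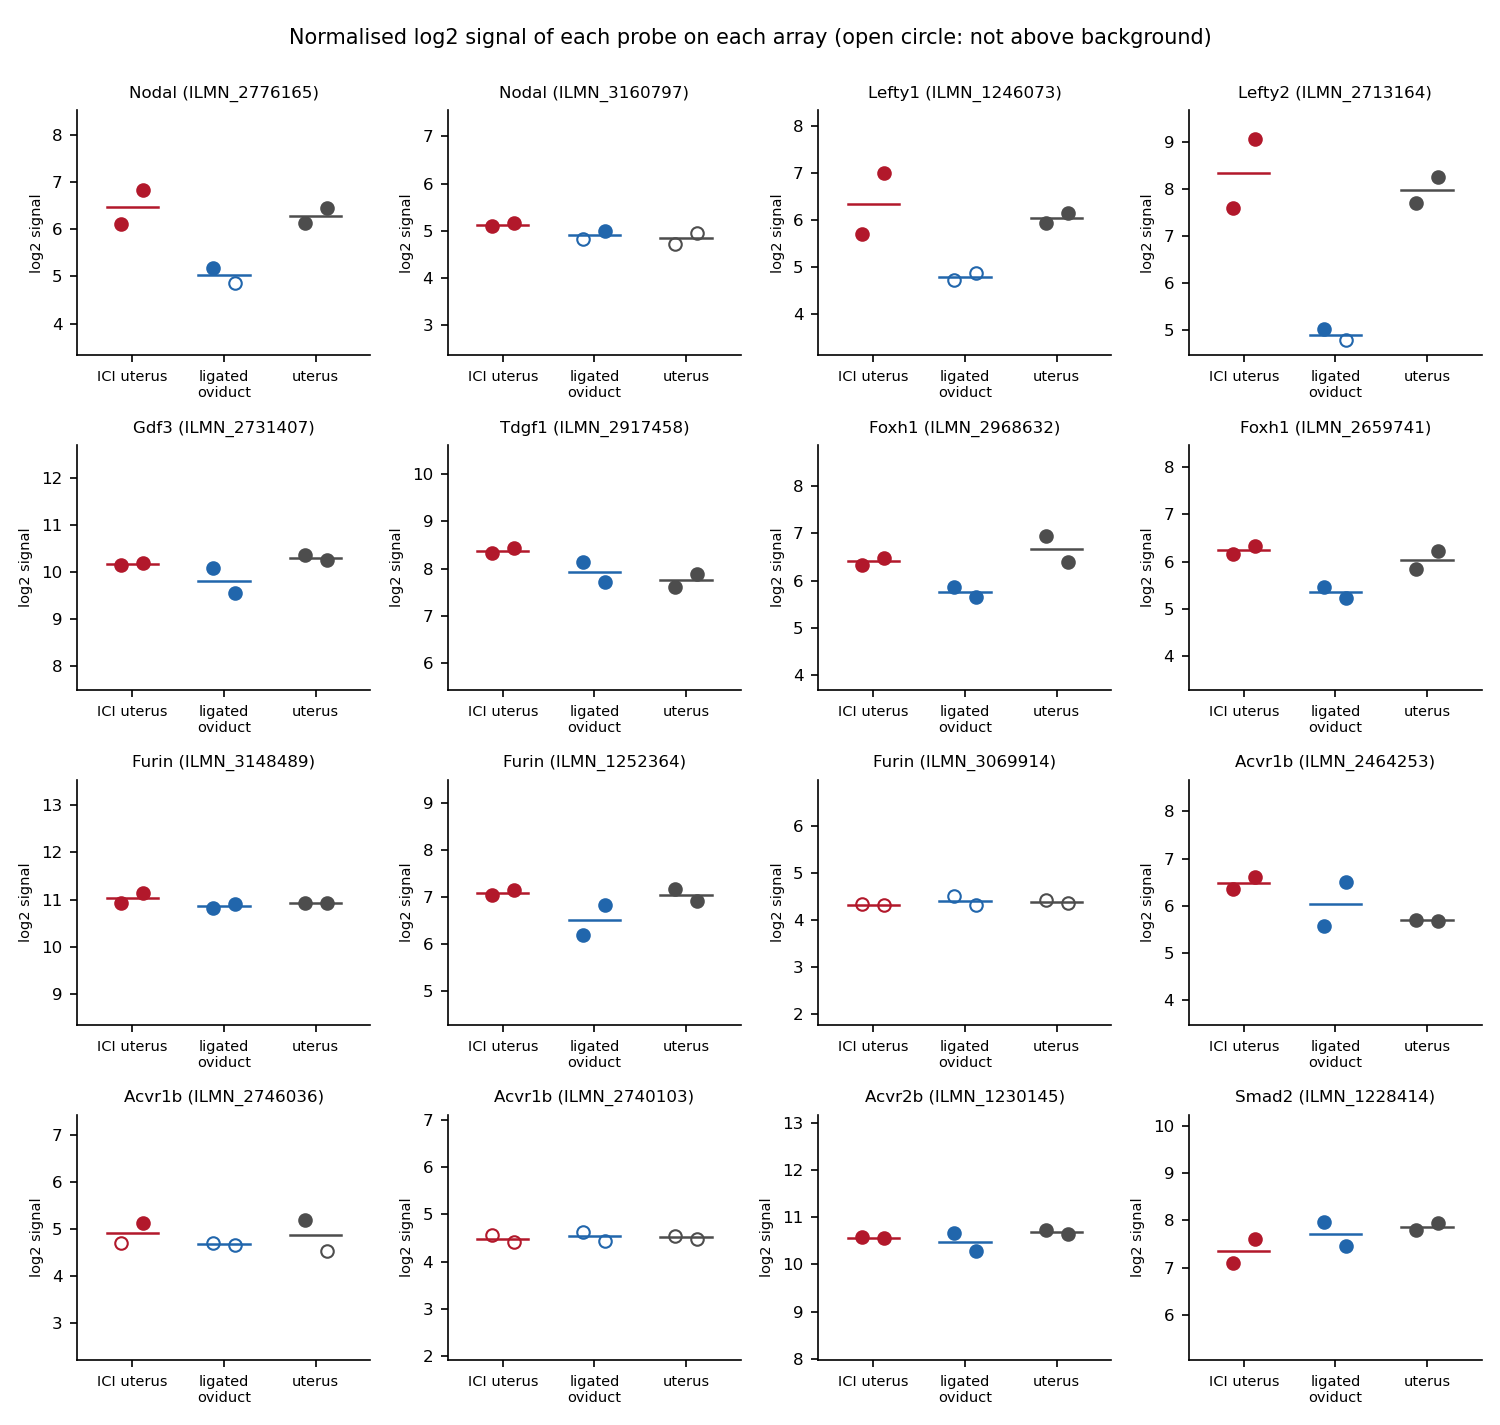
Log2 signals of all 16 member probes, with a panel each, in the ICI, oviduct and uterus groups. Points are arrays (open where not above background) and lines are group means, and each panel has its own axis range. Lefty2, Lefty1, 1 Nodal probe and both Foxh1 probes had both oviduct arrays below all 4 uterine arrays, as did Gdf3 and the 2 tested Furin probes.

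Gdf3, a ligand of the same family that also needs Tdgf1, was bright in every group. It had 10.15 and 10.18 on the ICI arrays, 10.08 and 9.55 on the oviduct arrays, and 10.35 and 10.25 on the uterus arrays. The log2 difference was -0.49 between oviduct and uterus (SE 0.22, limma adjusted p = 0.300) and -0.14 between ICI and uterus (SE 0.22, limma adjusted p = 0.858). The oviduct difference was -0.75 without oviduct replicate 1 and -0.22 without oviduct replicate 2. Furin, the convertase, varied little on its brightest probe (ILMN_3148489), which ranged over all 6 arrays from 10.83 to 11.13. Its second probe (ILMN_1252364) had 7.03 and 7.14 on the ICI arrays, 6.20 and 6.83 on the oviduct arrays, and 7.18 and 6.92 on the uterus arrays. Neither Furin probe passed limma's test, with adjusted p-values of 0.884 and 0.317 between oviduct and uterus, and the third was not above background on any array.

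Tdgf1, the membrane-anchored co-receptor of Nodal, had the lowest unadjusted p of any member between ICI and uterus. It had 8.32 and 8.44 on the ICI arrays, 8.13 and 7.72 on the oviduct arrays, and 7.61 and 7.89 on the uterus arrays. ICI embryos averaged 0.63 more than uterus embryos on the log2 scale (SE 0.22, 95% interval 0.11 to 1.14). The groups did not overlap, but the difference did not pass after adjustment (limma unadjusted p = 0.0239, adjusted p = 0.535). The oviduct arrays spanned a wider range and differed from uterus by 0.18 (SE 0.22, 95% interval -0.34 to 0.69, limma adjusted p = 0.702). RefSeq lists pseudogenes of Tdgf1, which this probe may also read.

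RefSeq promoters were at hand for 5 member genes. The 250 bases before the start are shown for Nodal, because its transcript was among those with the lowest oviduct signals, and for Tdgf1, because it alone held matches to a FOXH1 motif. On GRCm38.p6 they lie at chr10:61417722-61417971 (plus strand) and chr9:110946159-110946408 (minus strand), written 5′ to 3′ with motif matches in capitals.
Nodal: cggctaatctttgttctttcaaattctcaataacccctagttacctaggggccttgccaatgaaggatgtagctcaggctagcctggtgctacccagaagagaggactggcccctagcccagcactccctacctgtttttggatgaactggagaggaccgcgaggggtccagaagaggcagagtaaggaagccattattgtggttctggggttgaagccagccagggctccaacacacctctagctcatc
Tdgf1: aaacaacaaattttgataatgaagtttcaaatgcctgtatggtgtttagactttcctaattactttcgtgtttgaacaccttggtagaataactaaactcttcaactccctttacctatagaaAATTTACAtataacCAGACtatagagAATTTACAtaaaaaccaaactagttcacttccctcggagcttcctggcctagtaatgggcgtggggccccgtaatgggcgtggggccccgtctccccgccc
Both strands were searched for AATNNACA (FOXH1), GTCTAGAC (the SMAD box) and CAGAC (a SMAD-binding element, which does not overlap the FOXH1 matches here). Tdgf1 held AATTTACA at -127 to -120 and again at -101 to -94 from its start, with CAGAC between them at -113 to -109. CAGAC also occurred in both Furin windows (2 and 1 matches) and in that of Acvr2b (1 match). The Tdgf1 window was 42% G or C, and the windows of the other members were 50.4% to 83.2%. Of all 32851 promoters of this length, 10.9% held AATNNACA, 0.167% the SMAD box and 42.2% CAGAC. The Nodal window held none of these letters. These are matches of letters, not measured binding.

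The type I and type II receptors were both measured. Acvr2b, the type II receptor, was at 10.59 and 10.55 on the ICI arrays, 10.66 and 10.29 on the oviduct arrays, and 10.72 and 10.64 on the uterus arrays. Acvr1b, the type I receptor (ILMN_2464253), had 6.36 and 6.60 on the ICI arrays, 5.58 and 6.49 on the oviduct arrays, and 5.71 and 5.69 on the uterus arrays. The ICI arrays of Acvr1b lay above both uterus arrays, while its oviduct arrays were far apart. Its log2 difference between ICI and uterus was 0.78 (SE 0.31, 95% interval 0.06 to 1.51), which did not pass after adjustment (limma unadjusted p = 0.0385, adjusted p = 0.539), and it was 0.37 without background correction. Between oviduct and uterus it was 0.34 (SE 0.31, limma adjusted p = 0.585), which was 0.80 without oviduct replicate 1 and -0.11 without oviduct replicate 2. Another Acvr1b probe (ILMN_2746036) was above background on 1 ICI, 0 oviduct and 1 uterus arrays, and the remaining one on none.

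Foxh1, the nuclear partner of Smad2, had lower signals in oviduct embryos on both of its probes. The first (ILMN_2968632) had 6.33 and 6.48 on the ICI arrays, 5.86 and 5.65 on the oviduct arrays, and 6.94 and 6.39 on the uterus arrays. The other (ILMN_2659741) had 6.16 and 6.33 on the ICI arrays, 5.47 and 5.22 on the oviduct arrays, and 5.85 and 6.22 on the uterus arrays. On each probe both oviduct arrays lay below every uterine array. The log2 differences between oviduct and uterus were -0.91 (SE 0.23, limma unadjusted p = 0.00632, adjusted p = 0.134) and -0.69 (SE 0.21, limma unadjusted p = 0.0142, adjusted p = 0.171). Between ICI and uterus the probes pointed opposite ways, at -0.26 and 0.21, and neither passed.

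Smad2, the effector that the receptors phosphorylate, had 7.09 and 7.61 on the ICI arrays, 7.96 and 7.45 on the oviduct arrays, and 7.79 and 7.94 on the uterus arrays. Its ICI arrays lay below both uterus arrays, with a log2 difference of -0.51 (SE 0.26, 95% interval -1.14 to 0.11, limma adjusted p = 0.583). It was -0.25 without ICI replicate 1 and -0.78 without ICI replicate 2. The ICI mean of Smad2 also lay below its oviduct mean, with a difference of -0.36 (SE 0.26, limma adjusted p = 0.462), which ranged from -0.62 to -0.10 with 1 array left out, and the arrays of those groups overlapped. An array measures transcript, so nothing here bears on phosphorylation of the protein.

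Counted over the 13 tested probes, oviduct embryos had 8 with both arrays below both uterus arrays and 0 with both above, where 23.8% of all probes lay below without overlap and 23.5% above. The 8 included 2 probes each of Foxh1 and Furin, and the brightest Furin probe differed by only -0.06. With each gene counted once, at its brightest kept probe, 6 of 10 lay below and 0 above. At a limma unadjusted p under 0.05 there were 5 probes lower (both Foxh1 probes, Lefty1, Lefty2 and 1 Nodal probe) and 0 higher. Of all probes 9.09% were lower and 9.39% higher by that measure. Lefty1, Lefty2 and that Nodal probe were kept only through the ICI and uterus groups. A probe kept that way could hardly be called higher in oviduct embryos, so the direction of these calls is no support. The median log2 difference of the member probes was -0.49, and of all probes 0.00. The members were chosen with earlier results of these data known. Counts and medians over them are therefore descriptions and not independent evidence. The lower count ranged over the alternative settings from 3 (without uterus replicate 2) to 6, and the higher count was 1 without oviduct replicate 1 and 0 otherwise.

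Between ICI and oviduct, 10 probes had both ICI arrays above both oviduct arrays and 0 had both below, where 26.1% of all probes lay above and 27.3% below. At a limma unadjusted p under 0.05, 5 were higher (both Foxh1 probes, Lefty1, Lefty2 and 1 Nodal probe) and 0 lower, beside 10.5% and 10.2% of all probes. Here too Lefty1, Lefty2 and the Nodal probe were kept only through the ICI and uterus groups, so the direction of their calls is no support. The median difference was 0.45, against -0.01 over all probes. Because both comparisons use the oviduct arrays, these counts do not support each other. Between ICI and uterus, 4 probes were above without overlap and 3 below, beside 25.3% and 28.7% of all probes, and the member median was 0.19 against -0.03. At a limma unadjusted p under 0.05, 2 probes were higher (Tdgf1 and Acvr1b) and 0 lower, beside 5.71% and 3.52% of all probes, and the higher count ranged from 0 (without ICI replicate 2, without uterus replicate 1, or with the authors' values) to 2.

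**Figure D3:**
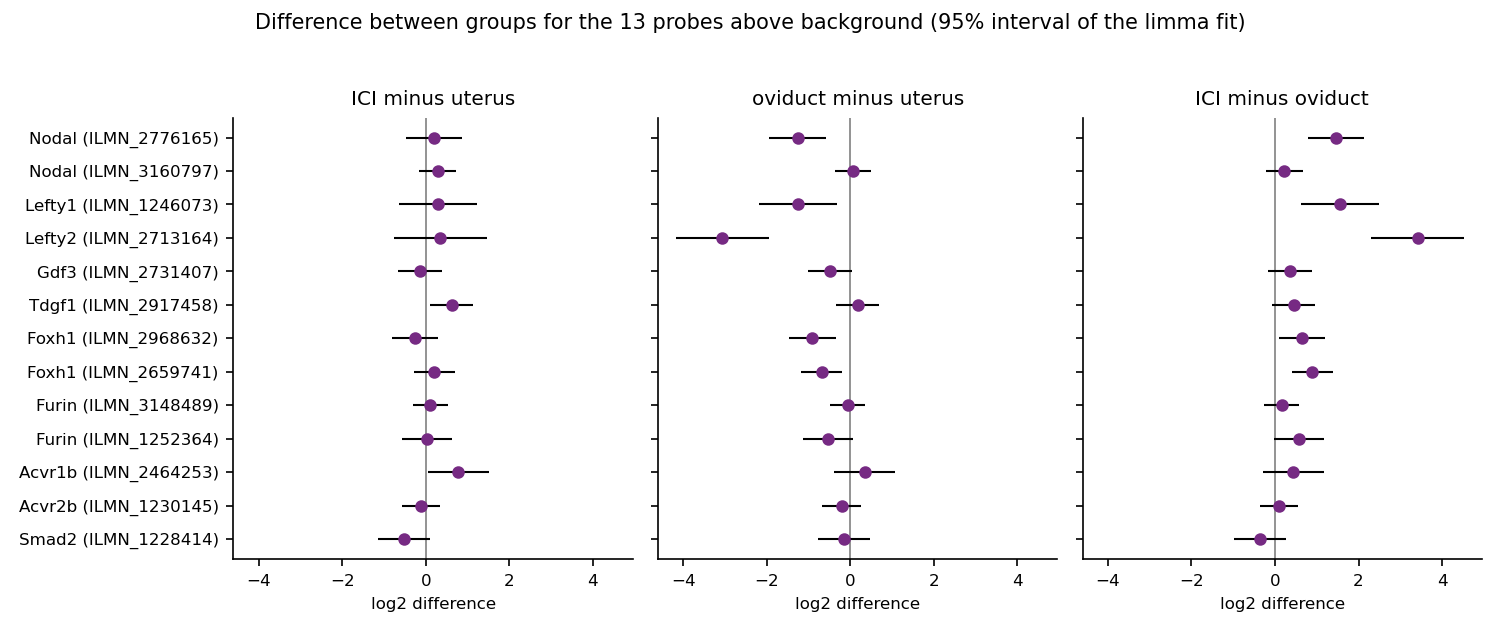
Log2 differences of the 13 tested member probes with 95% intervals from limma, in panels for ICI minus uterus, oviduct minus uterus and ICI minus oviduct. Lefty2 lay farthest from 0 in both comparisons with oviduct, at -3.06 and 3.41, and its interval between ICI and uterus spanned 0.

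The rest of the pathway was taken from 7 lists that held 56 further genes, of which 49 were on the array and 25 were tested. None passed limma's adjusted threshold in any comparison. At an unadjusted p under 0.05, 0 were higher and 4 lower in oviduct than in uterus embryos, with a median log2 difference of -0.19 over the 25, beside 9.39% and 9.09% of all probes. Between ICI and oviduct 3 were higher and 2 lower, with a median of -0.01, beside 10.5% and 10.2% of all probes. Between ICI and uterus 0 were higher and 0 lower, with a median of -0.07. The 10 further ligands on the array summed to 1581 on oviduct replicate 2, where 3 were above background, and to 340 on uterus replicate 2. On the remaining arrays they summed to between 76.8 and 97.4. Few of the other secreted components were above background on both arrays of a group. Of 10 further ligands on the array 1 was tested, and of 5 extracellular and membrane inhibitors 1, whereas all 10 further SMADs and nuclear partners on the array were tested.

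Eomes, a T-box factor and known Nodal target that is also a trophectoderm gene, had 9.07 and 9.68 on the ICI arrays, 8.22 and 7.37 on the oviduct arrays, and 8.68 and 9.37 on the uterus arrays. Its oviduct arrays lay below the others, by -1.23 from uterus (SE 0.38, limma adjusted p = 0.172). ICI exceeded oviduct by 1.58 (SE 0.38, limma adjusted p = 0.109). Dact2, which in zebrafish is known to promote breakdown of Nodal receptors, was not above background on either oviduct array. Its measured log2 difference between oviduct and uterus was -1.48 (SE 0.29, limma adjusted p = 0.0923). Between ICI and oviduct the measured difference of Dact2 was 1.06 (SE 0.29, limma adjusted p = 0.130). With the oviduct level raised to the background limit, the means still differed 2.17-fold from uterus and 1.63-fold from ICI embryos. These bounds do not allow for spread between pools. The corepressor Tgif2 differed by -0.61 between oviduct and uterus (SE 0.20, limma adjusted p = 0.185). Tgfbr2, a receptor for TGF-beta and not for Nodal, differed by -1.22 between ICI and oviduct (SE 0.36, limma adjusted p = 0.145), with 1 of 2 ICI arrays above background.

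**Figure D4:**
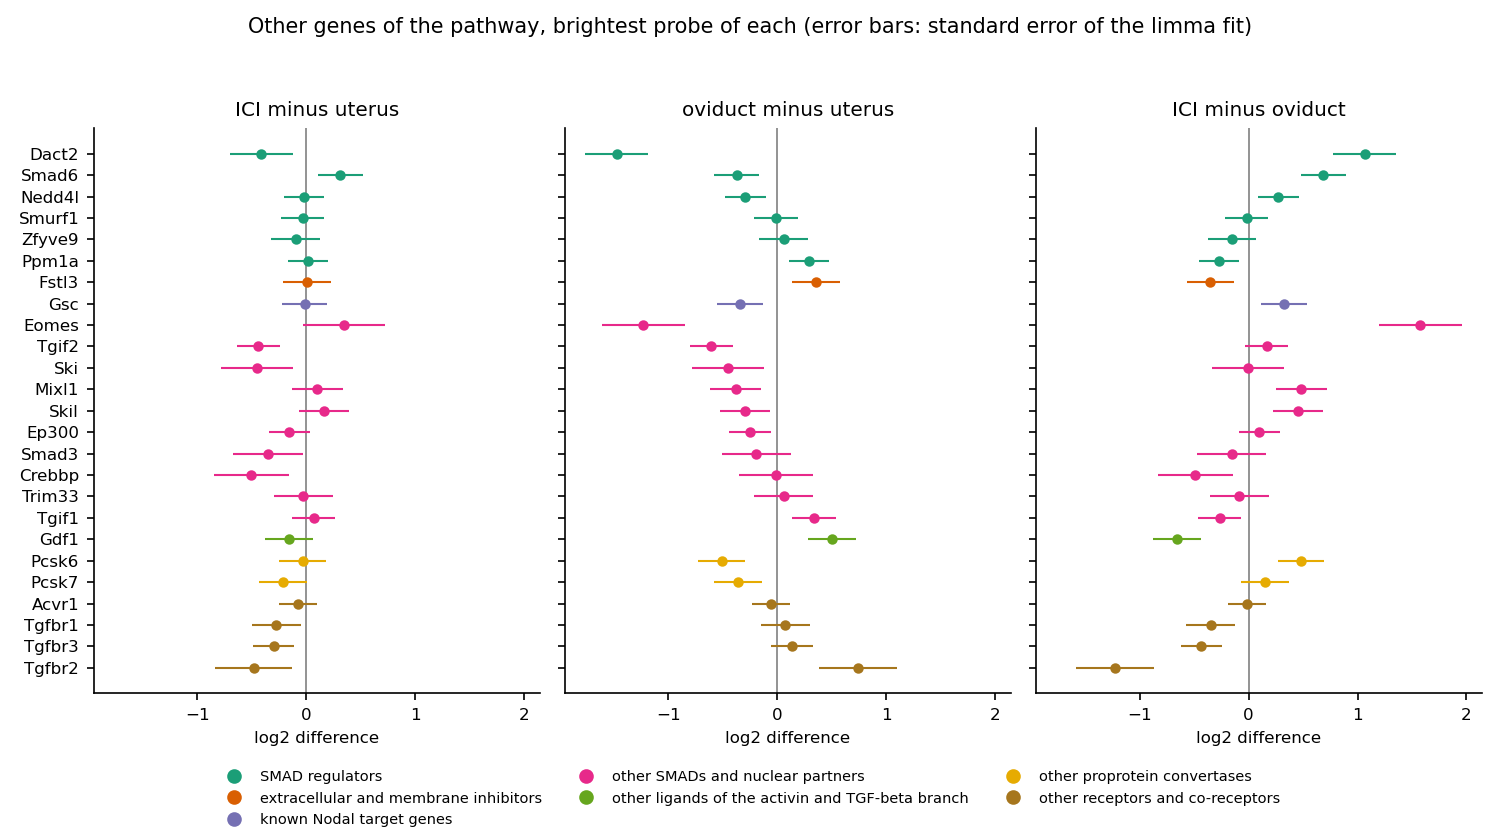
Log2 differences of the 25 tested genes of the pathway lists for ICI minus uterus, oviduct minus uterus and ICI minus oviduct, with standard errors from limma. Points are each gene's brightest tested probe, coloured by list, and a gene on more than 1 list is drawn once. Between oviduct and uterus, Eomes lay at -1.23, and the point of Dact2 is not exact because its oviduct arrays were not above background.

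The probes whose levels followed those of Nodal, Lefty1 and Lefty2 most closely were ranked by Pearson's r over the 6 arrays, among 2005 probes with a standard deviation of at least 0.5. Lefty2 was closest to the brighter Nodal probe (r = 0.995), followed by Nt5e (0.994), BC053393 (0.991), Mgll (0.990) and Dipk1a (0.989). Nodal was in turn closest to Lefty2, followed by Mgll (0.994), Dipk1a (0.992), Gsta2 (0.991) and Ets2 (0.991). Lefty1 was closest to F2r (0.988), Hopx (0.983), H1f2 (0.979), Akr1c12 (0.975) and Pga5 (0.970), and correlated with Lefty2 at 0.965 and with Nodal at 0.962. All these values share the same 6 arrays and their normalization, and a probe can score high by being low on both oviduct arrays. The first Foxh1 probe, also low there, had r = 0.79 with Nodal, 0.72 with Lefty1 and 0.81 with Lefty2.

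Marker genes of the blastocyst's lineages were measured on the same arrays. The summed signal of 12 epiblast genes was 41360 to 42250 on the ICI arrays, 40690 to 42540 on the oviduct arrays and 40940 to 41280 on the uterus arrays. That sum is mostly the signal of Dppa5a, which lay between 14.81 and 14.92 on all arrays, so it says little of the other genes. Of the 12, 2 were higher in oviduct than in uterus embryos at a limma unadjusted p under 0.05 and 0 lower, namely Otx2 by 1.59 (SE 0.19, adjusted p = 0.0561) and Nanog by 0.81 (SE 0.17, adjusted p = 0.109). Pou5f1 was at 9.35 on oviduct replicate 1 and at 11.35 to 12.23 on the other arrays. For 12 primitive endoderm genes the summed signal was 11440 to 14500, 11730 to 12990 and 10810 to 11880 in the same order of groups. That sum is mostly the signal of Dab2 (11.85 to 12.52) and Gata6 (11.41 to 12.09), so it says little of the other genes. Of the 11 tested, 4 were lower in oviduct than in uterus embryos at a limma unadjusted p under 0.05 (Sox17, Foxq1, Lama1 and Sox7) and 1 was higher (Gata6). Lama1, a laminin chain, differed by -2.13 on the log2 scale (SE 0.41, limma adjusted p = 0.0875). The summed trophectoderm signal was 44740 to 46810 in ICI, 32220 to 40280 in oviduct and 46880 to 50530 in uterus embryos, lower on both oviduct arrays. Of the 11 trophectoderm genes tested, 6 were lower in oviduct than in uterus embryos at a limma unadjusted p under 0.05 and 0 higher. For all probes these shares were 9.09% lower and 9.39% higher. Nanog, Pou5f1, Gata6, Cdx2 and Krt8 were above background on all 6 arrays. The part of lineage composition in the Lefty and Nodal values was not tested.

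Markers of cells that flushing could carry along were unevenly spread over the arrays. The summed signal of 7 oviduct epithelium genes was 130 to 166 on the ICI arrays, 198 to 493 on the oviduct arrays and 135 to 147 on the uterus arrays. Among them Foxj1, Pax8, Dnah5 and Ccdc39 were not tested for want of signal, while the oviduct glycoprotein gene Ovgp1 reached 6.52 and 8.35 on the oviduct arrays. For 8 uterine epithelium genes the sums were 4672 to 5346 in ICI, 3004 to 3274 in oviduct and 5385 to 5811 in uterus embryos. Those sums are mostly the signal of Wfdc2, which lay between 11.46 and 12.33 on all arrays, so they say little of the other genes. Among these Prap1 was at least 23.1-fold lower in oviduct than in uterus embryos (limma adjusted p = 0.0376). Neither oviduct array was above background, and the uterus values were 10.19 and 8.76. Prap1 was likewise low in ICI embryos, at 4.56 and 5.08, so its low signal was not particular to the oviduct. Its log2 difference between ICI and uterus was -4.66 (SE 0.45, limma adjusted p = 0.359). Of the 5 tested uterine epithelium genes, 4 had a lower mean in oviduct than in uterus embryos. Ltf had a higher one, by 0.69 (SE 0.57, limma adjusted p = 0.552). For 8 genes of stroma and muscle the sums were 129 to 131, 155 to 460 and 119 to 146 in the same order of groups. Blood and immune genes, 7 in all, summed to 74.3 to 241 in ICI, 166 to 3701 in oviduct and 795 to 2170 in uterus embryos. The globin gene Hba-a1 was at 5.58 and 6.89 on the ICI arrays, 5.79 and 10.73 on the oviduct arrays, and 10.18 and 8.67 on the uterus arrays. Of the 4 tested blood and immune genes, 2 had a higher mean in oviduct than in uterus embryos and 2 a lower. The higher were Lyz2 by 2.30 (SE 0.57, limma adjusted p = 0.129) and Cd74 by 0.91 (SE 0.27, limma adjusted p = 0.160). The 9 genes of oocytes and early cleavage summed to 258 to 449, 366 to 1002 and 337 to 4539. Of these Gdf9 stood at 11.12 on uterus replicate 2 and at 6.44 to 7.71 on the other arrays. The part of such cells in the values of the members was not tested.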

How the data were processed

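Per the labels, total RNA from embryo pools was amplified to biotin-labelled cRNA and hybridised to Illumina BeadArrays with 1 colour. Per the file headers, the deposited files give each probe's intensity averaged over beads, its bead standard error, the count of beads and a detection p-value. The authors' processed log2 values matched log2 intensity once a constant per probe and per array was removed (largest residual 0.00172). Their medians per array lay between -0.11 and 0.08, and no source used here says how they were centred.

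Intensities were corrected with limma's neqc (normexp on detection p-values, offset 16, quantile, log2) in limma 3.58.1 under R 4.3.3. A probe was kept if some group had detection p under 0.05 on each of its arrays, which left 17677 of 45281. Group means of 3 groups were fitted to all 6 arrays (3 residual and 3.77 prior degrees of freedom) with eBayes, and two-sided p-values were adjusted by Benjamini-Hochberg over all 17677, with 0.05 as threshold. A lower or upper bound on a fold uses the lowest signal above background on the array. It allows neither for spread between pools nor for other ways of processing. The procedure was tested on simulated data. Gene names came from the platform annotation, which gave 1 symbol for 34885 probes, several for 18 and none for 10378. Genes of the pathway lists were read at their brightest kept probe, and up to 3 per comparison with the smallest unadjusted p under 0.05 are named. The members and the lists were chosen with earlier results of these data known. Figures were drawn with matplotlib 3.10.9. The alternatives tried were median scaling, no background correction, offset 50, the authors' values, other detection filters, fits of only the groups compared, a replicate block, array weights and leaving out each array. The number of arrays, 2 per group, limits the precision. Depth is not defined for arrays, and each probe was read by a median of 43 to 44 beads per array.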

Additional observations from a re-analysis of the deposited data

How the results depend on the processing

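With 2 pools a group, calls moved with the setting. Fits that leave out an array measure no spread in that group, so their calls are left out of these counts. Member probes called between oviduct and uterus numbered 0, against 1 (Lefty2) with median scaling. Between ICI and oviduct they numbered 0, against 1 (Lefty2) with median scaling and 1 (Lefty2, limma adjusted p = 0.0474) with detection p under 0.01. Without oviduct replicate 2 the difference between ICI and oviduct was 0.89 for the dimmer Furin probe and 0.90 for Acvr1b. Between ICI and uterus the count was 0 under every setting run, as it was for all probes. Over all probes, 9 were called between oviduct and uterus (1 higher, 8 lower). There were 38 (19 higher, 19 lower) with median scaling, 29 with offset 50, 12 with detection p under 0.01, 1 without background correction and 1 without a filter. There were 0 with the authors' values, with only the groups compared, with the replicate block or with array weights, and 0 to 1516 with an array left out, the highest without oviduct replicate 1. Between ICI and oviduct 60 were called (39 higher, 21 lower), against 56 (19 higher, 37 lower) with median scaling, 20 (10 higher, 10 lower) with the authors' values, 11 with array weights, 5 with the replicate block, 4 without a filter, 0 with only the groups compared, 62 with offset 50, 81 (44 higher, 37 lower) without background correction, 85 with detection p under 0.01, and 0 to 2800 with an array left out, the highest without oviduct replicate 2. Median scaling put the median of all probes at 0.22 between oviduct and uterus and at -0.26 between ICI and oviduct. Relative to uterus it turned Furin (0.16), Acvr2b (0.0253) and Smad2 (0.14) in oviduct, and between ICI and oviduct Furin (-0.13) and Acvr2b (-0.24). The authors' values turned the dimmer Nodal probe (-0.13) between oviduct and uterus and Acvr2b (-0.0633) between ICI and oviduct. The cause was not tested.

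Leaving out 1 array gave a log2 difference between ICI and uterus of -0.17 to 0.55 for the brighter Nodal probe, -0.33 to 0.94 for Lefty1, -0.385 to 1.09 for Lefty2, -0.53 to 0.0155 for the first Foxh1 probe and -0.0907 to 0.17 for the dimmer Furin probe. Between oviduct and uterus it gave -0.056 to 0.17 for the dimmer Nodal probe, -0.0282 to 0.38 for Tdgf1, -0.11 to 0.80 for Acvr1b and -0.41 to 0.10 for Smad2. Between ICI and oviduct it gave -0.0148 to 0.90 for Acvr1b and -0.0883 to 0.28 for Acvr2b. The size of the Lefty2 difference between oviduct and uterus depended on the background step, at -1.65 without correction, -1.91 in the authors' values and -2.16 with offset 50. For Nodal these were -0.52, -0.69 and -0.75, and for Lefty1 -0.49, -0.67 and -0.69. Oviduct levels at or below background leave the true size unmeasured.

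Arrays of the same number deviated from their group means with correlations of 0.07, 0.13 and 0.23, and the labels give only a number, so the replicates are not known to be paired. The replicate block left member calls at 0, with a limma adjusted p for Lefty2 of 0.0559 between ICI and oviduct and 0.0765 between oviduct and uterus.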
